A study of Mus musculus with 6 samples.

Results

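Transcripts of 10 genes that control the shape and the removal of mitochondria were measured in cultured mouse aortic smooth muscle cells with and without Pdk4 in the smooth muscle lineage. The 10 genes were taken by name from the 41721 rows of the count table, where each had a single row: Mfn1, Mfn2 and Opa1 for mitochondrial fusion, Dnm1l, Fis1 and Mff for fission, and Pink1, Bnip3, Bnip3l and Fundc1 for mitophagy. The cells, named MASMCs in the study, were isolated by collagenase digestion from abdominal aortas of male C57BL/6 mice at 10 weeks of age, used at passages 4 to 8, starved of serum for 48 h, and in all 6 libraries treated with angiotensin II (Ang II), at 1 μM for 48 h by the study's methods. Of the 6 libraries, 3 came from Pdk4fl/fl cells, in which loxP sites flank exons 4, 5 and 6 of Pdk4 without a Cre transgene, and 3 from Pdk4SMKO cells, which carry the same floxed alleles and the tamoxifen-inducible Myh11-creERT2 transgene. Mice of both genotypes received tamoxifen. The study describes the deletion as specific to vascular smooth muscle cells. Whether other cell types in a culture kept Pdk4 was not tested. No untreated cells belong to this comparison, and the sources do not state whether each culture came from a different mouse, so that p-values measure the spread between these cultures.

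Mitochondria fuse and divide continually. The mitofusins encoded by Mfn1 and Mfn2 join the outer membranes of neighbouring mitochondria, and the dynamin-like GTPase encoded by Opa1 joins their inner membranes and holds the cristae in shape. Division is driven by the dynamin-related GTPase encoded by Dnm1l (DRP1), which is recruited from the cytosol by outer membrane adaptors such as those encoded by Mff and Fis1. Mitophagy, the selective engulfment of mitochondria by autophagosomes, is started either by the kinase PINK1, which marks damaged mitochondria with phosphorylated ubiquitin, or by outer membrane receptors such as BNIP3, BNIP3L (NIX) and FUNDC1, which bind LC3 family proteins directly. In smooth muscle cells these processes accompany changes of energy demand and of contractile state.

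The libraries held between 16526044 and 22481670 counts on genes. TMM normalization, edgeR's correction for composition, gave factors of 0.784 to 0.838 for Pdk4fl/fl and 1.21 to 1.26 for Pdk4SMKO libraries, so that a count of 3 stood for 0.132 to 0.227 CPM, counts scaled to a common library total. The genotypes were far apart over all genes: log2 CPM correlated across genes at 0.981 or above within a genotype and at 0.748 or below between genotypes. Pdk4, the targeted gene, had 38.0, 35.1 and 31.9 CPM in the Pdk4fl/fl libraries and 4.83, 9.06 and 6.92 CPM in the Pdk4SMKO libraries, a log2 fold change of -2.34 (SE 0.22, adjusted p = 4.49e-06). The table counts whole genes, so that reads from the deleted exons are not separated from the rest. Smooth muscle markers were detected in all 6 libraries, with summed levels of 785 to 811 CPM in Pdk4fl/fl and 723 to 954 CPM in Pdk4SMKO cells, but 4 of the 8 rose and 4 fell. Acta2, the smooth muscle actin gene and the most abundant in Pdk4SMKO cells, rose from 233 ± 40.8 to 701 ± 74.5 CPM. Myh11, Lmod1 and Des rose from low levels. Myh11 had 8 to 10 counts in the Pdk4fl/fl and 44 to 62 in the Pdk4SMKO libraries, and Des 0 to 5 and 18 to 22. Tagln (log2 fold change -2.26), Smtn (-2.28), Cnn1 (-1.495) and Myocd (-0.58) fell. Smtn and Tagln, the most abundant in Pdk4fl/fl cells at 280 and 253 CPM, went to 57.5 and 52.7 CPM. Markers of other cell types moved with genotype. The 7 mesothelial markers summed to 74.2 to 99.99 CPM in Pdk4fl/fl and 707 to 1298 CPM in Pdk4SMKO cells, and the 7 fibroblast markers to 626 to 855 and 5155 to 7060 CPM. Most of the fibroblast sum was Col1a1, at 620 ± 125 and 5901 ± 1146 CPM. Of the 7 fibroblast markers 4 rose and Dpt fell (log2 fold change -1.02), whereas Pdgfra (0.35) and Pi16 (-0.34) had an adjusted p above 0.05. The 7 macrophage markers summed to 21.4 to 38.0 CPM in Pdk4fl/fl and 9.71 to 30.5 CPM in Pdk4SMKO cells, but of the 6 tested 5 rose. Only Cd68, the most abundant in Pdk4fl/fl cells, fell, from 31.2 ± 8.78 to 4.29 ± 2.18 CPM (log2 fold change -2.85). C1qa, C1qb, Adgre1 and Tyrobp were at 0 in all Pdk4fl/fl libraries and at 11 to 170 counts in the Pdk4SMKO libraries. Csf1r had 2 to 4 counts in the Pdk4fl/fl and 32 to 132 in the Pdk4SMKO libraries. The endothelial markers were low, at 14.1 to 23.7 and 2.94 to 5.62 CPM in sum. The part of other cell types in the results below was not tested, and fewer cells of a type cannot be told apart from less RNA per cell.

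All 10 genes passed the filter on low counts. A gene is said here to rise or fall in Pdk4SMKO cells where the adjusted p was under 0.05 in edgeR's quasi-likelihood test with Benjamini-Hochberg adjustment over 14085 genes. Of the 10 genes, 3 rose, 5 fell and 2 did not pass. With a change of at least 2-fold required as well, the size limit in the study's methods, Opa1, Mff and Fundc1 rose, and Mfn2 and Bnip3l fell. The background was high: 42.0% of all tested genes rose and 37.1% fell, 79.1% in either direction, and with the 2-fold limit 32.8% rose and 26.5% fell, 59.3% in either direction. The 8 of 10 genes called, and the 5 of 10 called at 2-fold or more, were therefore near the share of all genes. The groups did not overlap for 8 of the 10 genes, against 81.8% of all tested genes (43.5% higher and 38.3% lower), 3 of the 8 being higher and 5 lower. The median log2 fold change of the 10 genes was -0.35, beside 0.12 for all tested genes.

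**Figure D1:**
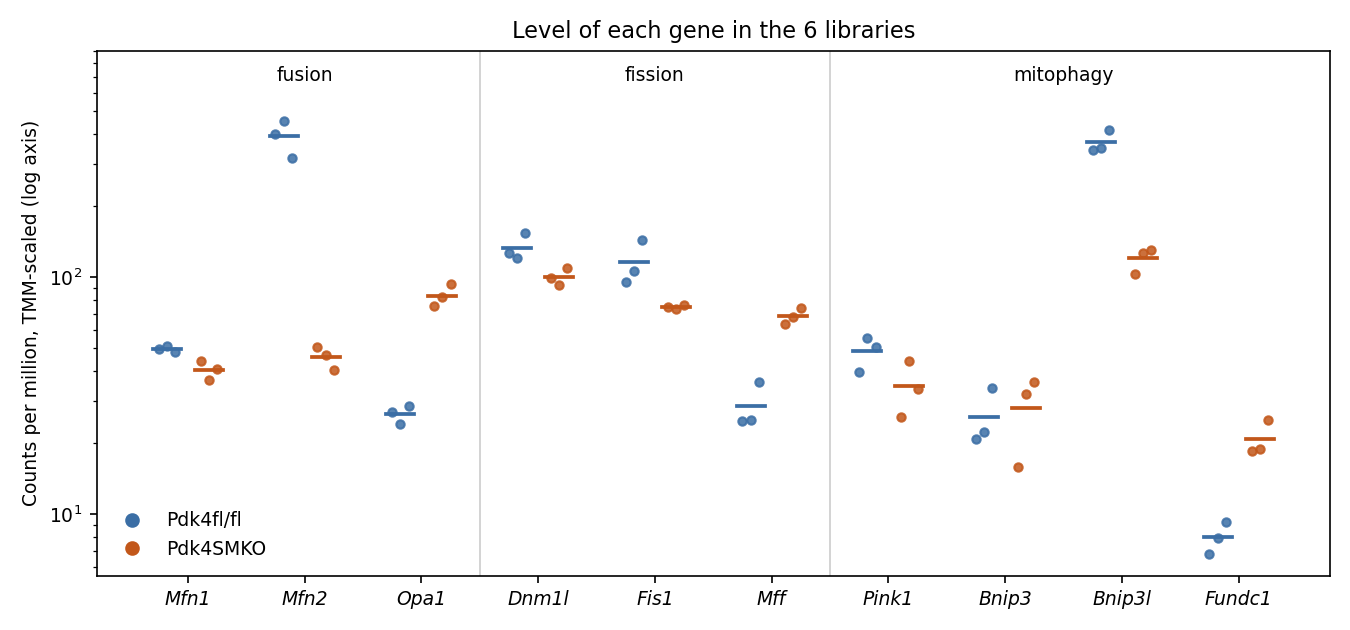
CPM after TMM normalization (log scale) of the 10 genes in each of the 6 libraries, Pdk4fl/fl and Pdk4SMKO side by side, grouped by fusion, fission and mitophagy; points are libraries and bars are group means. Mfn2 and Bnip3l sit lower in all 3 Pdk4SMKO libraries, Opa1, Mff and Fundc1 sit higher, and Bnip3 and Pink1 overlap between the genotypes.

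The fusion genes moved in opposite directions. Mfn2 was the gene with the greatest change of the 10, and Opa1 the one with the greatest rise, while Mfn1 did not pass the test. Mfn2 (MGP_C57BL6NJ_G0029539) lies on the minus strand of chromosome 4 from 157077819 to 157109910 of the C57BL/6NJ strain assembly. Beyond its role in outer membrane fusion, its product tethers mitochondria to the endoplasmic reticulum and is known for restraining proliferation of vascular smooth muscle cells. It had 6038, 8313 and 4180 counts in the Pdk4fl/fl libraries, or 402, 456 and 316 CPM, and 1156, 938 and 825 counts in the Pdk4SMKO libraries, or 50.8, 46.7 and 40.5 CPM. Every Pdk4SMKO library was far below every Pdk4fl/fl library. The means were 392 ± 70.7 and 46.0 ± 5.18 CPM (SD, n = 3 each), an 8.52-fold lower level in Pdk4SMKO cells, with a log2 fold change of -3.09 (SE 0.17, 95% confidence interval -3.46 to -2.72, adjusted p = 1.05e-07). In absolute size this change exceeded that of 84.0% of all tested genes. A processed pseudogene on the opposite strand inside Mfn2 had 6, 13 and 9 counts in Pdk4fl/fl and 1, 0 and 0 in Pdk4SMKO libraries, and whether the counting used strand is not given in the sources used here.

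Mfn1 (MGP_C57BL6NJ_G0027557, chromosome 3 from 31638080 to 31693677, plus strand), the other mitofusin, had 49.7, 51.3 and 48.2 CPM in Pdk4fl/fl and 44.4, 36.6 and 41.1 CPM in Pdk4SMKO libraries. The values of the genotypes did not overlap, but lay close to each other. The log2 fold change of -0.29 (SE 0.12, 95% confidence interval -0.56 to -0.01) had an adjusted p of 0.0522. The same gene passed with RLE factors (-0.32, adjusted p = 0.0347) and with DESeq2 (-0.32, adjusted p = 0.0296), and its sign turned with scaling to library totals alone (0.32, adjusted p = 0.0446). The ratio of Mfn2 to Mfn1 counts, which does not depend on scaling between libraries, was 8.09, 8.90 and 6.56 in the Pdk4fl/fl libraries and 1.14, 1.27 and 0.986 in the Pdk4SMKO libraries. Mfn2 was thus counted several times as often as Mfn1 in Pdk4fl/fl cells and about as often in Pdk4SMKO cells, a 6.90-fold difference in the ratio.

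Opa1 (MGP_C57BL6NJ_G0023122) lies on the plus strand of chromosome 16 from 28000580 to 28082670. It had 405, 435 and 377 counts in the Pdk4fl/fl libraries, or 27.0, 23.9 and 28.5 CPM, and 1714, 1648 and 1900 counts in the Pdk4SMKO libraries, or 75.3, 82.0 and 93.2 CPM. The lowest Pdk4SMKO library was well above the highest Pdk4fl/fl library. The level rose 3.15-fold, from 26.5 ± 2.37 to 83.5 ± 9.07 CPM (SD, n = 3 each), with a log2 fold change of 1.66 (SE 0.14, 95% confidence interval 1.36 to 1.96, adjusted p = 1.64e-06).

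The promoter windows of Mfn2 and Opa1, the fusion genes that moved furthest in opposite directions, are shown with that of Bnip3, a textbook target of hypoxia-inducible factor that did not pass the test here. Each line gives the 250 bases before a RefSeq transcript start, 5′ to 3′ on the gene's strand in GRCm38.p6. Capitals mark matches on either strand to the letters searched. These were ACGTG for the first form of the hypoxia response core, then GCGTG for its second form, then the E-box CACGTG (which holds the first form on both strands), then GTAAACA for forkhead factors and lastly GCATGCG for the core of the NRF1 site.
Mfn2, chr4:147904910-147905159, minus strand, 1 of 3 windows: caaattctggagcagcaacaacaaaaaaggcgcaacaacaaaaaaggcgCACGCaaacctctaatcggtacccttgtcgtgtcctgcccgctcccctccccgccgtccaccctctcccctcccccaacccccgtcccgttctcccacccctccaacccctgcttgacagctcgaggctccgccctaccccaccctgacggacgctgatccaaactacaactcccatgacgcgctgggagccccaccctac
Opa1, chr16:29579084-29579333, plus strand: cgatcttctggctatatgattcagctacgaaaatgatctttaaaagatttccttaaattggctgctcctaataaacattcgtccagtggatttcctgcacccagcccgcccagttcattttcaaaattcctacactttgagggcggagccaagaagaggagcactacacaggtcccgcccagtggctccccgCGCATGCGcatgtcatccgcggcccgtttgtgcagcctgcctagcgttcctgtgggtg
Bnip3, chr7:138909507-138909756, minus strand: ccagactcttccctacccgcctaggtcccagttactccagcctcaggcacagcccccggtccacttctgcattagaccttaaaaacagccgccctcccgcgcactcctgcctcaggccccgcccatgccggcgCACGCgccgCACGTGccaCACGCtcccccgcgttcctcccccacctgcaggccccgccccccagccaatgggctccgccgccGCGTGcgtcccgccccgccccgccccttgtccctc
The Opa1 window held 2 matches to the NRF1 core, which overlap on opposite strands as the core is nearly palindromic, and 3.02% of the 32851 windows of this length in the mouse table hold at least 1. The Bnip3 window held 2 matches to the first hypoxia core, both within the same E-box, and 3 to the second. The Mfn2 window shown held 1 match to the second core. Of the Mfn2 windows not shown, 1 held 1 match to each core and 1 held 1 match to the second alone. A Dnm1l window and the Pink1 window each held 1 match to the second core. The first core occurs in 16.57% of all windows, the second in 28.16%, either form in 38.6%, the E-box in 6.021% and the forkhead motif in 3.166%. Single matches to the short cores are therefore common. Of the 9 members with a window in the table, all but Bnip3l, the genes Mfn1, Fis1, Mff and Fundc1 held no match to any of these letters. A match describes the letters of the window alone.

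Among the fission genes, the adaptor gene Mff rose while Fis1 and Dnm1l fell by less. Mff (MGP_C57BL6NJ_G0016609, chromosome 1 from 86872469 to 86899970, plus strand) encodes the main outer membrane anchor for DRP1. It had 24.6, 25.04 and 36.2 CPM in Pdk4fl/fl and 63.4, 67.7 and 74.1 CPM in Pdk4SMKO libraries. All Pdk4SMKO libraries were above all Pdk4fl/fl libraries, of which replicate 3 was the highest. The means of 28.6 ± 6.56 and 68.4 ± 5.38 CPM (SD, n = 3 each) gave a 2.39-fold rise, a log2 fold change of 1.26 (SE 0.17, 95% confidence interval 0.89 to 1.63, adjusted p = 5.59e-05). A sense intronic row within Mff, Gm28941, had 0 counts in every Pdk4fl/fl library and 41, 34 and 34 counts in the Pdk4SMKO libraries, beside 1445, 1361 and 1511 for Mff itself.

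Fis1 (MGP_C57BL6NJ_G0030640, chromosome 5 from 146932015 to 146947003, plus strand), a small tail-anchored protein of the outer membrane, had 95.7, 106 and 144 CPM in Pdk4fl/fl and 74.6, 73.5 and 76.5 CPM in Pdk4SMKO libraries. The Pdk4fl/fl values were spread widely and all lay above the narrow range of the Pdk4SMKO values. Fis1 fell with a log2 fold change of -0.62 (SE 0.16, 95% confidence interval -0.97 to -0.27, adjusted p = 0.00398), a call that was lost with scaling to library totals (-0.01, adjusted p = 0.958). The counts of Fis1 per count of Mff were 3.89, 4.23 and 3.98 in Pdk4fl/fl and 1.18, 1.08 and 1.03 in Pdk4SMKO libraries, a 3.68-fold lower ratio with no overlap.

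Dnm1l (MGP_C57BL6NJ_G0022972, chromosome 16 from 13585054 to 13634730, minus strand), the fission GTPase itself, changed little. It had 126, 120 and 153 CPM in Pdk4fl/fl and 98.6, 92.9 and 109 CPM in Pdk4SMKO libraries, without overlap. The log2 fold change was -0.41 (SE 0.13, 95% confidence interval -0.70 to -0.11, adjusted p = 0.0162) with TMM factors and 0.20 (adjusted p = 0.167) with library totals alone. The call was also lost with upper-quartile factors (-0.19, adjusted p = 0.196), with at least 10 counts required in every library (-0.31, adjusted p = 0.0537) and without Pdk4SMKO replicate 2 (-0.34, adjusted p = 0.0776). Against Opa1, the ratio of Dnm1l counts went from 4.68, 5.02 and 5.35 in Pdk4fl/fl to 1.31, 1.13 and 1.17 in Pdk4SMKO libraries, a 4.16-fold lower ratio. Counts of both mitofusins together per count of Dnm1l were 3.58, 4.24 and 2.39 in Pdk4fl/fl and 0.966, 0.897 and 0.745 in Pdk4SMKO libraries, 3.83-fold lower. This sum was mostly Mfn2 in Pdk4fl/fl cells, and Mfn1 alone, at -0.29, differed little from Dnm1l in its log2 fold change.

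The mitophagy receptors also separated. Bnip3l and Fundc1 moved in opposite directions, and Bnip3 did not pass the test. Bnip3l (MGP_C57BL6NJ_G0021905, chromosome 14 from 64506197 to 64535605, minus strand), whose product clears mitochondria from maturing red cells, had 5159, 6344 and 5524 counts in Pdk4fl/fl libraries, or 344, 348 and 418 CPM, and 2347, 2533 and 2660 counts in Pdk4SMKO libraries, or 103, 126 and 130 CPM. Every Pdk4SMKO value was less than any Pdk4fl/fl value by a wide margin. The level fell 3.09-fold, from 370.1 ± 41.6 to 120 ± 14.7 CPM (SD, n = 3 each), with a log2 fold change of -1.63 (SE 0.14, 95% confidence interval -1.94 to -1.32, adjusted p = 2.30e-06).

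Fundc1 (MGP_C57BL6NJ_G0036088, chromosome X from 12735353 to 12753174, minus strand), a receptor known for hypoxia-induced mitophagy, had the fewest counts of the 10 genes in every library but Pdk4SMKO replicate 1, where Bnip3 had fewer. It had 102, 145 and 122 counts in Pdk4fl/fl libraries, or 6.80, 7.96 and 9.23 CPM, and 422, 377 and 510 counts in Pdk4SMKO libraries, or 18.5, 18.8 and 25.02 CPM. The genotypes did not overlap. The 2.60-fold rise from 7.998 ± 1.22 to 20.8 ± 3.68 CPM (SD, n = 3 each) had a log2 fold change of 1.38 (SE 0.19, 95% confidence interval 0.95 to 1.81, adjusted p = 8.31e-05).

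Bnip3 (MGP_C57BL6NJ_G0033638, chromosome 7 from 149223800 to 149244576, minus strand), the close relative of Bnip3l, had 20.7, 22.2 and 33.9 CPM in Pdk4fl/fl and 15.8, 32.1 and 35.9 CPM in Pdk4SMKO libraries. Both the lowest and the highest of the 6 values came from Pdk4SMKO cells. The log2 fold change of 0.13 (SE 0.29) had an adjusted p of 0.696, and its 95% confidence interval from -0.53 to 0.78 leaves room for a change in either direction. It passed with library totals alone (0.74, adjusted p = 0.0352), and was -0.08 without Pdk4SMKO replicate 3 and 0.42 without Pdk4SMKO replicate 1. Counts of Bnip3 per count of Bnip3l were 0.0603, 0.0637 and 0.0811 in Pdk4fl/fl and 0.154, 0.255 and 0.275 in Pdk4SMKO libraries, 3.26-fold higher, and counts of Fundc1 per count of Bnip3 were 0.328, 0.359 and 0.272 and then 1.17, 0.584 and 0.697, 2.45-fold higher. Among Bnip3l, Bnip3 and Fundc1, Bnip3l remained the most counted in all 6 libraries, by a smaller margin in Pdk4SMKO cells.

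Pink1 (MGP_C57BL6NJ_G0029418, chromosome 4 from 146051338 to 146068546, minus strand), the kinase that senses loss of mitochondrial import, had 39.9, 55.5 and 50.9 CPM in Pdk4fl/fl and 25.7, 44.4 and 33.7 CPM in Pdk4SMKO libraries. Pdk4SMKO replicate 2 was above Pdk4fl/fl replicate 1, so that the groups overlapped. The log2 fold change was -0.50 (SE 0.20, 95% confidence interval -0.95 to -0.04, adjusted p = 0.0456) with TMM factors and 0.11 (adjusted p = 0.614) with library totals. The call did not hold without Pdk4fl/fl replicate 2 (-0.38, adjusted p = 0.164), Pdk4fl/fl replicate 3 (-0.48, adjusted p = 0.0744), Pdk4SMKO replicate 1 (-0.31, adjusted p = 0.150) or Pdk4SMKO replicate 3 (-0.47, adjusted p = 0.109). Pdk4SMKO replicate 1, the lowest library for both Pink1 and Bnip3, also had the highest sums of mesothelial (1298 CPM), fibroblast (7060 CPM) and smooth muscle markers (954 CPM) of all 6 libraries and, among the Pdk4SMKO libraries, of macrophage (30.5 CPM) and endothelial markers (5.62 CPM), and the part of this in the values was not tested.

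For all 6 ratios between members, the genotypes did not overlap, and an exact two-sided permutation test gave p = 0.1, the smallest that 3 cultures against 3 allow (adjusted p = 0.1 over the 6 ratios). The same exact test on the level of each gene gave p = 0.1 for 8 genes, 0.2 for Pink1 and 0.9 for Bnip3.

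**Figure D2:**
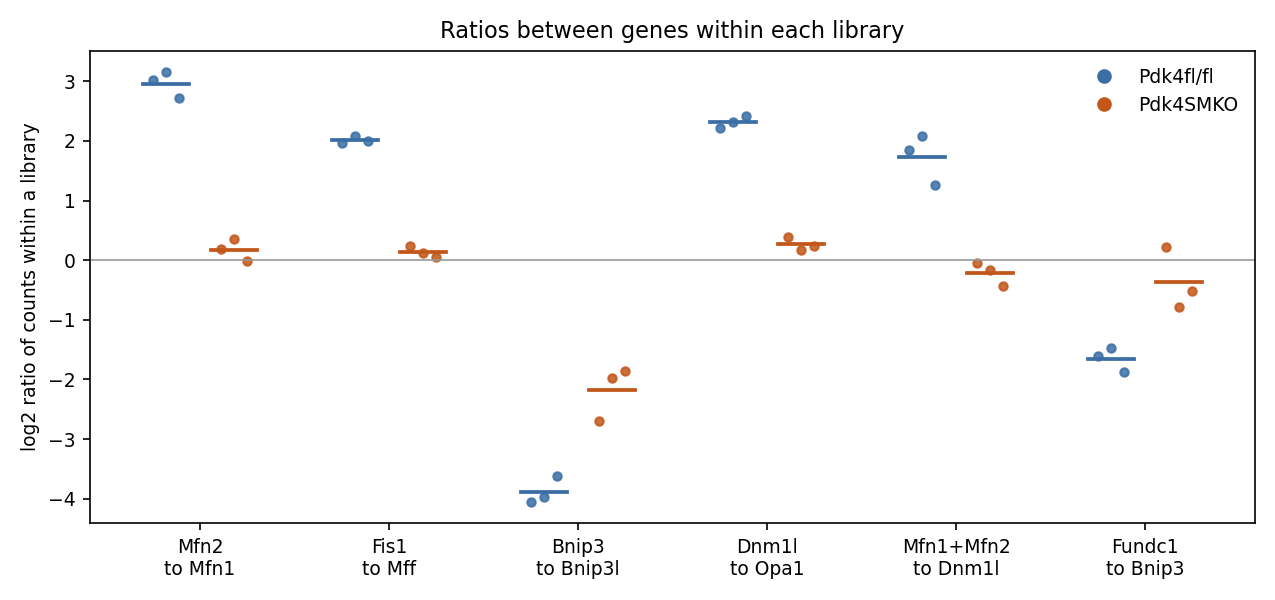
Log2 ratios of counts within each library for the 6 pairs of members, with points for libraries and bars for group means. In all 6 ratios the Pdk4fl/fl and Pdk4SMKO libraries are separate, from 8.09, 8.90 and 6.56 to 1.14, 1.27 and 0.986 on the linear scale for Mfn2 to Mfn1.

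The scaling between libraries decided the smaller differences. The median log2 fold change of all tested genes was 0.12 with TMM factors, 0.09 with RLE factors, 0.33 with upper-quartile factors and 0.72 with library totals, and totals gave 5 members higher and 2 lower where TMM gave 3 and 5, beside 7743 and 3550 of all genes where TMM gave 5913 and 5232. Relative to the median of all genes, the TMM values were -3.21 for Mfn2, -1.74 for Bnip3l, -0.74 for Fis1, -0.61 for Pink1, -0.52 for Dnm1l, -0.41 for Mfn1, 0.01 for Bnip3, 1.14 for Mff, 1.26 for Fundc1 and 1.54 for Opa1. With library totals the relative values were nearly the same, such as -0.73 for Fis1 and 1.15 for Mff. Mfn2, Bnip3l, Opa1, Mff and Fundc1 kept their direction, their 2-fold size and their call under all 14 alternatives run.

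**Figure D3:**
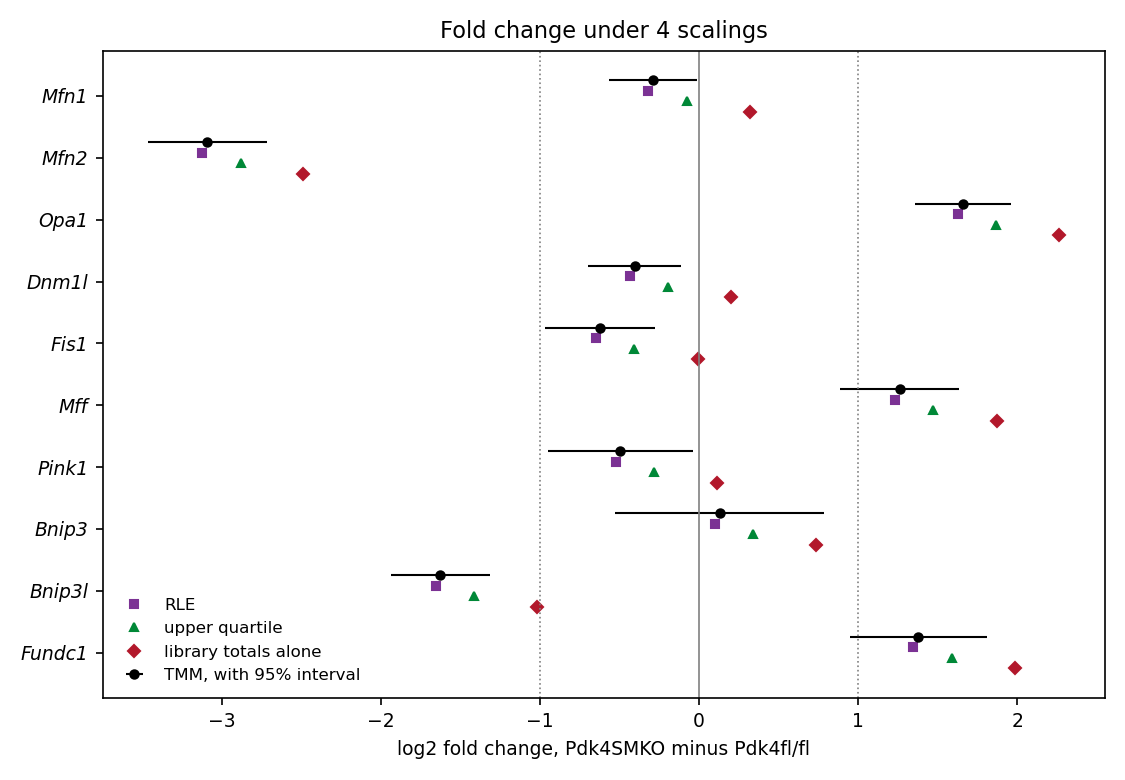
Log2 fold change (Pdk4SMKO over Pdk4fl/fl) of the 10 genes with TMM, RLE and upper-quartile factors and with library totals alone; the bars are 95% confidence intervals with TMM factors. Mfn2, Bnip3l, Opa1, Mff and Fundc1 stay on their side of 0 under each scaling, while Mfn1, Dnm1l and Pink1 change sign with library totals, to 0.32, 0.20 and 0.11.

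Within a genotype, levels were compared between genes as CPM per kilobase of the gene length listed in the table. In Pdk4fl/fl cells the order ran from Bnip3l at 105 through Mfn2 at 75.4, Fis1 at 67.2, Dnm1l at 31.8, Pink1 at 21.1, Bnip3 at 12.3, Fundc1 at 10.1 and Mfn1 at 8.14 to Opa1 at 3.36 and Mff at 2.93 CPM per kilobase. The ranges of the neighbours Mfn2 and Fis1, Bnip3 and Fundc1, and Opa1 and Mff overlapped between libraries, and those of the other neighbours did not. In Pdk4SMKO cells Fis1 led at 43.7, followed by Bnip3l at 34.0, Fundc1 at 26.3, Dnm1l at 24.0, Pink1 at 14.9, Bnip3 at 13.4, Opa1 at 10.6, Mfn2 at 8.85, Mff at 7.01 and Mfn1 at 6.66 CPM per kilobase. Here only the steps from Fis1 to Bnip3l, from Dnm1l to Pink1 and from Mfn2 to Mff separated the neighbours' ranges. Mean levels spanned 35.8-fold from the highest to the lowest of the 10 genes in Pdk4fl/fl cells and 6.56-fold in Pdk4SMKO cells. Mfn2 went from the second place to the eighth, and Fundc1 from the seventh to the third.

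**Figure D4:**
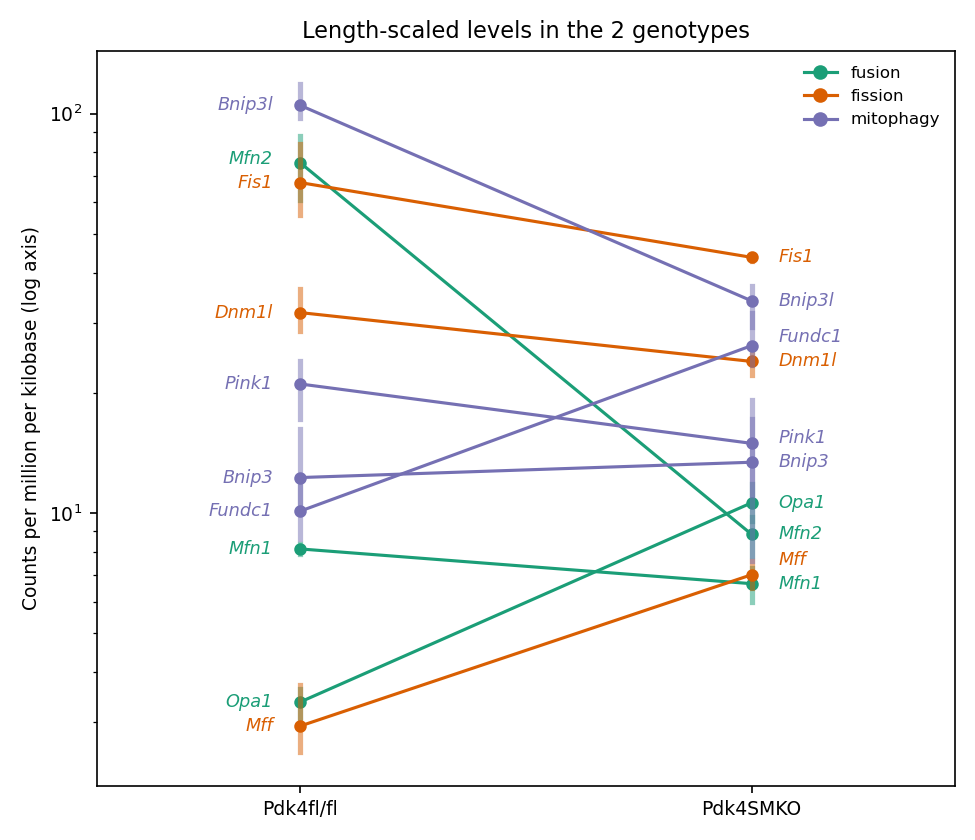
Mean CPM per kilobase (log scale) of the 10 genes in Pdk4fl/fl and Pdk4SMKO cells, with lines that join the same gene and bars from the lowest to the highest library. Means run from 2.93 to 105 in Pdk4fl/fl cells and from 6.66 to 43.7 in Pdk4SMKO cells.

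Next, the 10 genes were set against transcripts for mitochondrial bulk. These were 23 nuclear genes for import, porin, chaperone and respiratory chain proteins and for other matrix proteins (Cs, Mdh2 and Etfa). Of the 23, 14 fell, 3 rose and 6 did not pass. The median log2 fold change was -0.67 (9 lower and 9 higher with library totals alone). Over all tested genes 37.1% fell and 42.0% rose. Hspa9, the mitochondrial HSP70, fell from 2585 ± 17.9 to 358 ± 23.5 CPM (SD, n = 3 each; log2 fold change -2.85, adjusted p = 3.71e-08), and Timm50 of the inner membrane translocase had a log2 fold change of -2.04 (adjusted p = 8.96e-07). Uqcrc1 of complex III (1.01, adjusted p = 2.78e-05) and the import receptor gene Tomm70 (0.92, adjusted p = 2.93e-05) rose. Relative to the geometric mean of the 23 genes in the same library, Opa1 was higher by 2.30, Fundc1 by 2.02, Mff by 1.93, Mfn1 by 0.36 and Dnm1l by 0.25 log2 units in Pdk4SMKO cells, with differences of -2.43 for Mfn2 and -0.98 for Bnip3l. These 7 genes did not overlap between the genotypes (exact permutation p = 0.1, adjusted p = 0.143 over the 10 genes). Fis1 at 0.05 (exact p = 0.6), Pink1 at 0.13 (exact p = 0.7) and Bnip3 at 0.73 (exact p = 0.2) overlapped. Fis1 and Pink1 thus differed from the average of the 23 genes by less than the spread between libraries, whereas Mfn1 and Dnm1l, lower in CPM, were higher against it.

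Around the fusion and fission machinery, 15 of 17 further regulators found in the table were tested, of which 5 rose, 7 fell and 3 did not pass (median log2 fold change -0.40), while library totals alone gave 6 higher and 4 lower (median 0.21). Mtfr1, a fission regulator, fell from 123 ± 5.10 to 30.6 ± 3.92 CPM (adjusted p = 3.76e-07), and Mul1, an outer membrane ubiquitin ligase, from 61.5 ± 11.8 to 19.7 ± 2.55 CPM (-1.64, adjusted p = 8.90e-06). Mief2, a receptor for DRP1, had 6, 15 and 9 counts in Pdk4fl/fl and 261, 236 and 176 in Pdk4SMKO libraries, and rose with a log2 fold change of 4.03 (SE 0.31, adjusted p = 1.07e-06). Oma1, the stress-activated protease that cleaves OPA1, had 13, 5 and 6 and then 159, 121 and 126 counts (3.60, SE 0.38, adjusted p = 1.06e-05). The other 3 that rose were named after their values were seen. The DRP1 receptor gene Mief1 went from 9.56 ± 2.40 to 45.8 ± 1.65 CPM. The outer membrane carrier gene Slc25a46 went from 7.39 ± 1.13 to 44.95 ± 5.73 CPM, and the formin gene Inf2 from 39.5 ± 7.84 to 400.5 ± 35.6 CPM. The remaining genes that fell were also named after their values were seen. Yme1l1 went from 297 ± 39.7 to 131 ± 8.05 CPM (-1.18, adjusted p = 1.42e-05). Mtfr2 had -1.40, Stoml2 -0.84, Parl -0.65 and Mtfr1l -0.40. Of the outer membrane partners of DRP1 described here, Mief1, Mief2 and Mff were higher and Fis1 was lower (-0.62).

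Of 14 genes for cristae organisation, 10 fell, 2 rose and 2 did not pass (median -0.87), against 4 higher and 5 lower with library totals alone (median -0.26). Mtx1 of the outer membrane sorting complex fell from 104 ± 32.3 to 16.0 ± 3.00 CPM (-2.70, adjusted p = 3.33e-06), and Micos10, a core subunit of the MICOS complex that holds cristae junctions, from 119 ± 43.2 to 35.5 ± 4.79 CPM (-1.75, adjusted p = 5.43e-05). Apool, another MICOS subunit, rose (1.21, adjusted p = 0.00053), and so did Samm50 (0.34, adjusted p = 0.0482), whose values overlapped between the genotypes. Opa1, which works with this complex on cristae, rose while most of its genes fell. Of 6 tested genes for transport of mitochondria, 3 rose and 3 fell (median -0.01; 3 higher and 1 lower with library totals alone), from the kinesin heavy chain gene Kif5b (742 ± 63.1 to 244 ± 15.2 CPM, -1.60, adjusted p = 1.10e-06) to Rhot1, which encodes the Miro GTPase that links mitochondria to motors (29.9 ± 4.18 to 54.7 ± 4.30 CPM, 0.87, adjusted p = 0.000245). Trak1, a motor adaptor gene, had -0.62 (adjusted p = 0.00949), and Armcx3, whose groups overlapped, 0.76 (adjusted p = 0.0175).

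The genes that act with Pink1 fell together. Of 12 tested genes of the PINK1 pathway, 11 fell, none rose and only Vcp did not pass (log2 fold change 0.25, adjusted p = 0.0736), with 9 of the 11 at 2-fold or more and a median of -1.35. With library totals alone 9 were lower and 1 higher (median -0.74). Over all tested genes 37.1% fell with TMM factors, and 26.5% fell by 2-fold or more. Sqstm1, the ubiquitin-binding autophagy receptor p62, fell 16.4-fold, from 10669 ± 622 to 650.1 ± 13.1 CPM (-4.04, SE 0.14, adjusted p = 1.45e-08). It took 0.812 to 0.922% of all counts in the Pdk4fl/fl libraries and 0.0791 to 0.0816% in the Pdk4SMKO libraries. Optn, a mitophagy receptor for ubiquitin chains, fell from 248 ± 25.4 to 37.5 ± 0.682 CPM (-2.72, adjusted p = 4.28e-08). The smallest falls were those of Usp30, a mitochondrial deubiquitinase (-0.96, adjusted p = 3.71e-05), and the kinase gene Tbk1 (-0.37, adjusted p = 0.0110). Pink1 itself, at -0.50, was among the smaller differences of this pathway.

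Of 12 tested genes for other mitophagy receptors and regulators, 5 rose, 3 fell and 4 did not pass (median 0.11), against 2 lower and 8 higher with library totals alone (median 0.72). Ambra1, a regulator of autophagy initiation, fell from 199 ± 34.4 to 56.3 ± 4.30 CPM (-1.82, adjusted p = 1.74e-06), and the GTPase gene Rheb from 299 ± 55.5 to 85.8 ± 6.58 CPM (-1.80, adjusted p = 2.02e-06). Nlrx1, a mitochondrial NOD-like receptor, had 2, 9 and 4 counts in Pdk4fl/fl and 210, 130 and 130 in Pdk4SMKO libraries (4.50, SE 0.41, adjusted p = 3.40e-06). Fbxl4, which encodes the ubiquitin ligase subunit that keeps BNIP3 and BNIP3L protein low, rose from 5.16 ± 1.51 to 17.2 ± 1.39 CPM (1.74, adjusted p = 5.83e-05). Pptc7, which encodes a phosphatase that acts with FBXL4 on the same receptors and was named after its values were seen, rose from 6.58 ± 2.37 to 15.0 ± 2.74 CPM (1.18, adjusted p = 0.00221). Over the 5 lists together, 15 of 59 tested genes rose and 34 fell (22 and 21 with library totals), with 10 and 22 at 2-fold or more and a median of -0.55. The background over all tested genes was 42.0% higher and 37.1% lower, or 32.8% and 26.5% at 2-fold or more.

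Bnip3 and Bnip3l are known targets of hypoxia-inducible factor. Of 15 other textbook targets, 10 rose, 3 fell and 2 did not pass, with a median of 1.10 (11 higher and 2 lower with library totals alone). Over all tested genes 42.0% rose and 37.1% fell, with a median of 0.12. Adm, which encodes adrenomedullin, rose from 11, 4 and 14 to 544, 451 and 364 counts (5.06, SE 0.37, adjusted p = 7.24e-07), and the prolyl hydroxylase gene Egln3 from 3.86 ± 0.680 to 70.2 ± 9.70 CPM (4.19, adjusted p = 4.00e-08). Ndrg1 fell from 625 ± 40.6 to 28.7 ± 10.1 CPM (-4.45, adjusted p = 1.88e-07), and the histone demethylase gene Kdm3a had -0.95 (adjusted p = 0.000161). Bnip3 at 0.13 and Bnip3l at -1.63 both lay below the median of these targets.

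**Figure D5:**
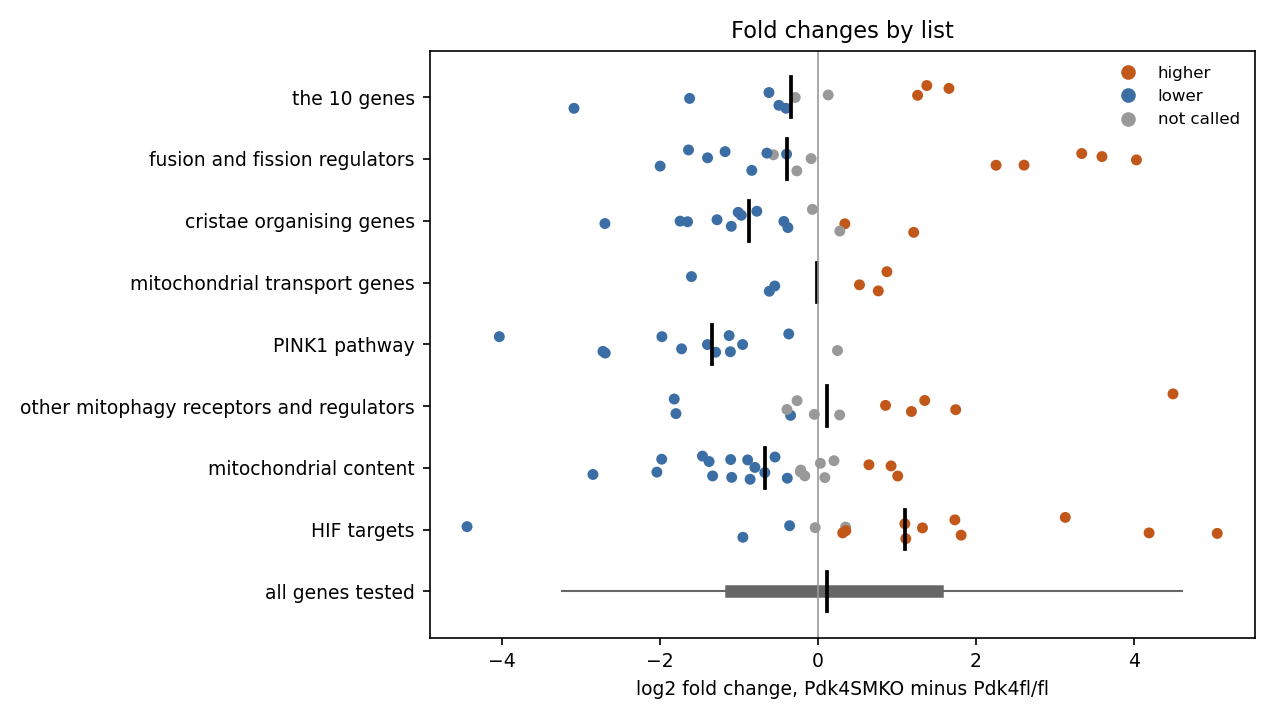
Log2 fold change (Pdk4SMKO over Pdk4fl/fl) of each tested gene by list, with points coloured by call and a black bar for the median; the lowest row gives all tested genes, with a thick line over the middle of their distribution and a thin line toward its tails. The medians run from -1.35 for the PINK1 pathway to 1.10 for the hypoxia targets, with -0.35 for the 10 genes and 0.12 for all tested genes.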

How the data were processed

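RNA of 6 MASMC cultures, 3 Pdk4fl/fl and 3 Pdk4SMKO, was sequenced in pairs of 150-base reads. A table of raw integer counts, reads assigned to each gene in each library, was deposited. The study's text names NEBNext Ultra as the library kit and the labels name SMARTER. The aligner, the counting program and the use of strand are not given in the sources used here. The submitters' processing notes list the build GRCm39, whereas all but 625 of the 41721 identifiers are those of the C57BL/6NJ strain annotation, whose coordinates are given.

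The 10 genes, the other gene lists and the rule for named genes were chosen with earlier results of these data known, so that no list is independent evidence. The rule names the 10 genes, Pdk4, a further gene that is not reported here and, in each list, the 2 genes with the lowest and the 2 with the highest log2 fold change among those with an adjusted p under 0.05 and at least 5 CPM in the higher genotype. Gene lists were matched by symbol, and a few genes, such as Micos10, Tomm70 and Vdac3, by an older symbol or the description. Marchf5, Ubb, Tufm, Vegfa, Lyz2 and Muc16 were not analysed here.

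Differences between genotypes were fitted with edgeR 4.0.16 under R 4.3.3 (filterByExpr, TMM factors, glmQLFit and glmQLFTest with genotype as the term) and Benjamini-Hochberg adjustment over the 14085 genes tested. DESeq2 1.42.0, the tool of the study's methods, was an alternative. CPM are counts scaled with the TMM factors, and the depth of 16526044 to 22481670 counts per library makes 3 counts equal to 0.132 to 0.227 CPM, for counting error only. Ratios within a library used counts plus 0.5 and exact two-sided permutation tests in SciPy 1.17.1. Promoter sequences came from RefSeq (GRCm38.p6). The fit was tested on simulated counts and the permutation test on constructed values. The alternatives were other scaling factors, DESeq2, other filters, protein-coding genes only, the replicate number as a block and leaving out each library.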

Additional observations from a re-analysis of the deposited data

How the results depend on the processing

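The calls of at least 2-fold were 3 higher and 2 lower under all 14 alternatives. The count of all members called lower, 5 with TMM factors, was 3 with upper-quartile factors, 2 with library totals alone, 3 with at least 10 counts required in every library, 6 with RLE factors, DESeq2 or protein-coding genes only, and 4 to 5 when a library was left out, and the count called higher, 3, was 5 with library totals. Of the genes in the 5 other lists, 34 were lower with TMM factors, 21 with library totals alone, and 30 to 36 over the same left-out libraries. Library totals reversed Mfn1 (0.32), Dnm1l (0.20) and Pink1 (0.11), since they leave out the composition factors that raised Pdk4fl/fl values. When a library was left out, Bnip3 ran from -0.083 (without Pdk4SMKO replicate 3) to 0.42 (without Pdk4SMKO replicate 1). Against the 23 genes of mitochondrial content, leaving out a library gave -0.022 (Pdk4fl/fl replicate 1) to 0.14 (Pdk4fl/fl replicate 3) for Fis1 and -0.080 (Pdk4SMKO replicate 2) to 0.35 (Pdk4SMKO replicate 1) for Pink1. The cause was not tested. Mfn1 passed in addition with protein-coding genes only (-0.32, adjusted p = 0.0352), without Pdk4fl/fl replicate 3 (-0.33, adjusted p = 0.0351) and without Pdk4SMKO replicate 1 (-0.35, adjusted p = 0.0386). Pink1 lost its call with upper-quartile factors (-0.29, adjusted p = 0.208) and when each library had to reach 10 counts (-0.40, adjusted p = 0.102). The ratios between members kept their direction under every alternative run.

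Replicate numbers are shared between the genotypes. Deviations of same-numbered libraries from their group means correlated at 0.0396, 0.0604 and 0.176 across genes, the last for replicate 3. Differently numbered libraries gave -0.131 to 0.0533. All of these were small, and the numbers were not taken to pair the libraries. With the replicate block, 3 members were higher and 5 lower, and of the other lists 16 genes were higher and 35 lower. The number of libraries, 3 per genotype, and the counts of the least counted genes limit the precision.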
